A study of Mus musculus with 2 samples.

Results

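Phip, Prickle1, Cemip2 and Hunk are 4 of the 7790 genes that could be named on a cDNA array of RNA recovered with HuR from mouse myoblasts. They were chosen by the HuR minus IgG difference of a clone and by the differences of the wells next to it on its source plate, since each was described as a high clone that stands alone. Both values come from the measurements given here, so the differences of these clones are a description and were not tested. All clones whose Entrez Gene number, in either of the table's columns for it, belongs to these genes were taken. This gave 6 clones among 16896 spotted features, namely 3 of Phip (Entrez Gene 83946) and 1 each of Prickle1 (106042), Cemip2 (83921) and Hunk (26559). The table lists the genes on mouse chromosomes 9, 15, 19 and 16 in that order.

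There were 2 samples of C2C12, a mouse myoblast line that fuses into muscle fibres when serum is withdrawn. Both came from untreated, proliferating cells kept in medium with 20% serum and 1% antibiotics and collected at 80% confluency. One sample is RNA recovered with a monoclonal antibody to HuR and the other is RNA recovered with IgG as the control, and each was read in 3 array runs, namely an unnumbered run, run 3 and run 4. Whether these are new precipitations or only new hybridisations of the same RNA is not stated in the labels, so each antibody counts as 1 sample, no test between antibodies is possible, and no p-value was computed.

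HuR, the product of Elavl1, is an RNA-binding protein that recognises AU-rich and U-rich stretches, often in 3' ends, and is known for protecting such mRNAs from decay and for acting on myogenic regulator mRNAs in muscle cells. Phip encodes a bromodomain and WD repeat protein that binds insulin receptor substrate proteins and serves as a substrate receptor of CUL4 ubiquitin ligases. Prickle1 encodes a cytoplasmic LIM domain protein of the planar cell polarity pathway, which orients cells within a tissue. Cemip2, listed under its older symbol Tmem2, encodes a membrane protein described in mouse as a cell surface hyaluronidase, and Hunk encodes a serine/threonine kinase related to the AMP-activated kinase.

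Values are z scores as deposited, centred on the median of each run within each section of the table, so 0 is a middling spot and 1 unit is the SD of an array. The base of the logarithm behind the scores is not given in the sources used here, and no fold change can be given. For a difference, the IgG score was subtracted from the HuR score of the same run number and the 3 results were averaged, with their SD as the spread between runs. In the brighter 50% of features by mean score (8450), the median difference was -0.03, the 5th percentile was -0.40 and the 95th was 0.51. Runs correlated at 0.80 to 0.87 for HuR and at 0.77 to 0.88 for IgG across features, whereas the differences of 2 run pairs correlated at 0.03 to 0.31. Of 11 myoblast markers only Vim and Cdh2 had a named clone, both in the brighter 50%, while Myod1, Myog and Des had none. Of 7 epithelial and liver markers 6 were also in the brighter 50%, so brightness did not tell the cell types apart.

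The high clone of each gene was brighter with HuR than with IgG in every run. Differences were 2.10 ± 0.35 for Phip, 1.77 ± 0.38 for Hunk, 1.61 ± 0.23 for Prickle1 and 1.47 ± 0.24 for Cemip2 (SD, 3 run pairs). In each of the 4 clones the lowest HuR run lay above the highest IgG run, which held for 386 (4.57%) of the 8450 features. A difference of at least 1 unit was reached by 132 (1.56%) of these features, and a difference of at least 1 in every run pair by 84 (0.994%). Over all 16896 features 191 (1.13%) reached 1 unit, and 8 (0.0947%) of the brighter ones were at or below -1. Nothing is read from these shares, since the clones were chosen for this contrast. Ranked by difference, the clones of Phip, Hunk, Prickle1 and Cemip2 stood at 17, 35, 55 and 70 of the 8450. The next question is whether the wells around them on the source plates were high as well, and there the 4 clones differed.

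**Figure D1:**
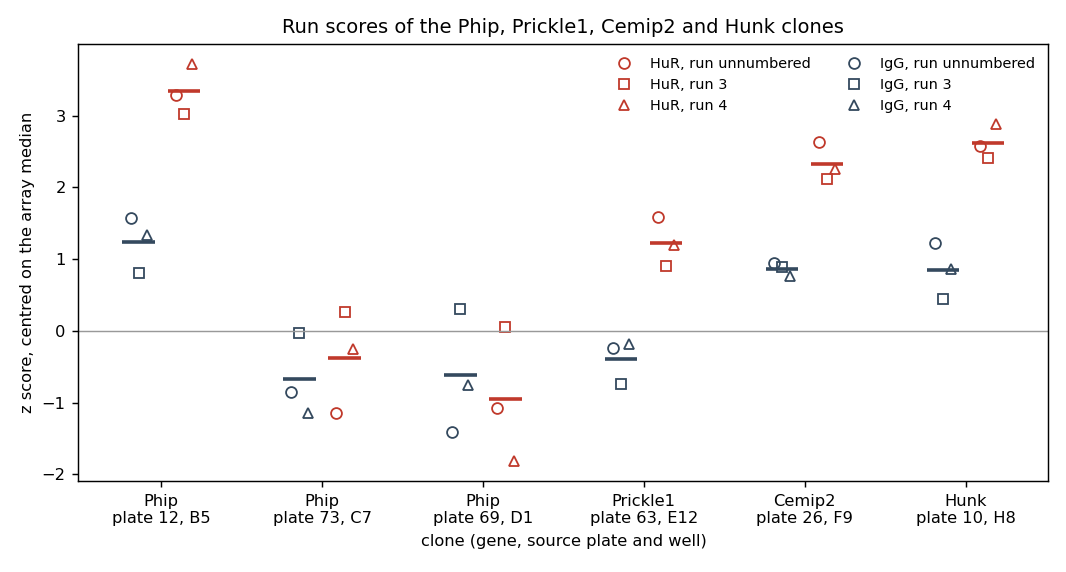
Centred z scores of the 6 clones in the 3 HuR runs (red) and the 3 IgG runs (dark), with a bar at the mean of each antibody and a marker shape for each run number. The 4 high clones have HuR and IgG runs that do not overlap, with gaps of 1.08 to 1.45 units, and the other Phip clones, at plate 73 and plate 69, have runs that do.

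The high Phip clone sat on plate 12, row B, column 5. Its HuR scores were 3.28, 3.02 and 3.72 in the unnumbered run, run 3 and run 4, and its IgG scores were 1.57, 0.81 and 1.34. Every HuR run was thus higher than every IgG run, by at least 1.45 units. The spot was bright with either antibody, at percentile 99.9 of all features with HuR and at percentile 88.2 with IgG, so the control recovery also gave a clear signal there. The differences of the run pairs were 1.71, 2.21 and 2.38. In the authors' deposited table the z ratio of this clone, in which the difference is scaled by the SD over all clones, is 7.0.

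The other Phip clones did not share this difference. On plate 73, row C, column 7, the HuR scores were -1.14, 0.26 and -0.25 and the IgG scores -0.85, -0.03 and -1.15, which gave 0.30 ± 0.60. On plate 69, row D, column 1, the HuR scores were -1.07, 0.06 and -1.82 and the IgG scores -1.41, 0.31 and -0.75, which gave -0.33 ± 0.71. The runs of the antibodies overlapped in both clones, and neither difference exceeded its spread between runs. Both spots were dim, at percentiles 23.9 and 15.0 by mean score, and lay outside the brighter 50%. Of the 191 features at or above 1 unit at any brightness, 132 were in the brighter 50%. Whether background hides a difference in the dim Phip clones was not tested. The authors' deposited table gives them z ratios of 1.01 and -1.09.

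The names of the 3 Phip spots also differ in the table. The high clone carries number 83946 in both number columns, while the dim clones carry 83946 in one column and 83811, with the symbol Ndrp, in the other. The UniGene columns run the other way, since the older and the newer cluster are the same for the dim clones and not the same for the high clone. Ndrp is listed as an older symbol of Phip in the RefSeq genes of GRCm38.p6, where the number 83811 has no entry. A further clone bears the symbol 2810004D21Rik, which RefSeq also lists as a synonym of Phip, but under a number of its own (69937), and it was not counted as a Phip clone. That clone, on plate 131, was at -0.14 ± 0.12 in the brighter 50%, with HuR scores of 0.50, 0.30 and 0.32 and IgG scores of 0.74, 0.31 and 0.49. It was lower with HuR than with IgG in each run pair, by slightly more than its spread between runs, though the runs of the antibodies overlapped. The Phip signal in the HuR sample thus rests on 1 well.

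That well stood apart from the wells next to it. The 8 adjoining wells of plate 12 were all bright, and their differences ran from -0.18 to 0.32 with a median of 0.21. Among the named ones, Vipas39, a vesicle sorting protein, was the highest at 0.31 ± 0.45 and AW049941 the lowest at -0.08 ± 0.54. The Phip clone exceeded all 8 in each run pair, by 1.82, 1.95 and 2.18 units over their median. Plate 12 as a whole was not quiet, since 12 other wells reached 1 unit at any brightness and 11 of these lay in columns 1 to 3. The highest was an Actb clone, encoding beta-actin, in row A, column 2, at 2.58 ± 0.72, and the closest of the 12 lay 3 wells from Phip.

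Prickle1 was the only high well of its plate by the mean over runs. Its clone sat at the edge of plate 63, in row E, column 12. The HuR scores were 1.59, 0.90 and 1.19 and the IgG scores were -0.24, -0.74 and -0.18 in the unnumbered run, run 3 and run 4. All HuR runs were above the array median and all IgG runs below it, with a gap of 1.08 units between the closest runs. By mean score the spot stood at percentile 87.8 with HuR and at percentile 30.1 with IgG, so it is the only high clone of these genes that lay in the lower 50% of the control. The run pairs gave 1.83, 1.64 and 1.37, and the authors' deposited table gives a z ratio of 5.38.

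No other well of plate 63 came near this value. Of its 96 wells, 1 reached 1 unit, namely Prickle1, and the next highest, an unnamed clone in row E, column 7, was at 0.58. Only 20 of the 96 were in the brighter 50%, against 86 on plate 12, 32 on plate 26 and 90 on plate 10. Whether background hides a difference in other wells of plate 63 was not tested. The 5 adjoining wells ran from 0.11 to 0.27, with a median of 0.17. Slc6a20a, an amino acid transporter, was the highest of them at 0.27 ± 0.86, and AU022479, the other named one, was at 0.17 ± 0.64. None of the 5 wells was in the brighter 50%, so their differences are less certain than those around Phip. They also moved between runs. In the unnumbered pair they had a median of 0.47 and Slc6a20a reached 1.18, where Prickle1 was at 1.83, whereas in pair 3 they lay between -0.52 and 0.02 and in pair 4 between 0.16 and 0.51.

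The name of this clone rests on 1 of the table's number columns. The other column has no value for it, and the table's symbol is 1110058P22Rik, an older symbol of Prickle1. The UniGene clusters recorded for it in the older and the newer column are not the same. No second Prickle1 clone was found, so the value has no check from another well.

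Cemip2 had a high clone on plate 26, row F, column 9. Its HuR scores were 2.63, 2.11 and 2.25 and its IgG scores 0.94, 0.89 and 0.76. The IgG runs were within 0.18 units of each other, and the closest runs of the antibodies were 1.17 units apart. The spot was at percentile 98.2 with HuR and at percentile 80.9 with IgG. The run pairs gave 1.69, 1.22 and 1.49, and the z ratio in the authors' deposited table is 4.91.

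The Cemip2 well had 1 high neighbour, a clone of Hmgb1 in row F, column 10 of the same plate. Hmgb1, a high mobility group chromatin protein named in the study's title, was at 1.60 ± 0.44 there, with HuR scores of 2.78, 2.12 and 2.57 and IgG scores of 0.84, 1.02 and 0.80. The Hmgb1 well exceeded the Cemip2 well in the unnumbered pair (1.94 against 1.69) and pair 4 (1.77 against 1.49), but not in pair 3 (1.10 against 1.22). Both clones were lowest in pair 3, as were the Hmgb1 clones of plates 59, 126 and 145, which lay far from Cemip2 and were at 1.07, 0.93 and 1.47 there. The Hmgb1 clone of plate 27 differed, with its lowest value, -0.58, in the unnumbered pair, against 0.69 for pair 3 and 0.95 for pair 4. The other 7 adjoining wells ran from -0.19 to 0.36, with Ttc19, a mitochondrial assembly factor, at 0.36 ± 0.37. Among the named ones 1110002E17Rik was the lowest, at -0.12 ± 0.49. With the Hmgb1 well counted, the median of the 8 was 0.14, so the median of the adjoining wells does not show the Hmgb1 well.

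Other Hmgb1 clones had no such neighbour. The highest wells beside the clones on plates 27, 59, 126 and 145 were at 0.13, 0.27, 0.41 and 0.74, and the Hmgb1 clones themselves at 0.35, 1.51, 1.38 and 1.80. A well at or above 1 unit thus lay beside 1 of the 5 Hmgb1 clones, and it was Cemip2. On the larger plates into which the 96-well plates were combined, where wells had other neighbours, the wells around Cemip2 did not include Hmgb1 and ran from -0.37 to 0.59. Whether material of the Hmgb1 well takes part in the Cemip2 value was not tested. Plate 26 held 10 other wells at or above 1 unit, the highest an unnamed clone in row C, column 11, at 1.91.

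**Figure D2:**
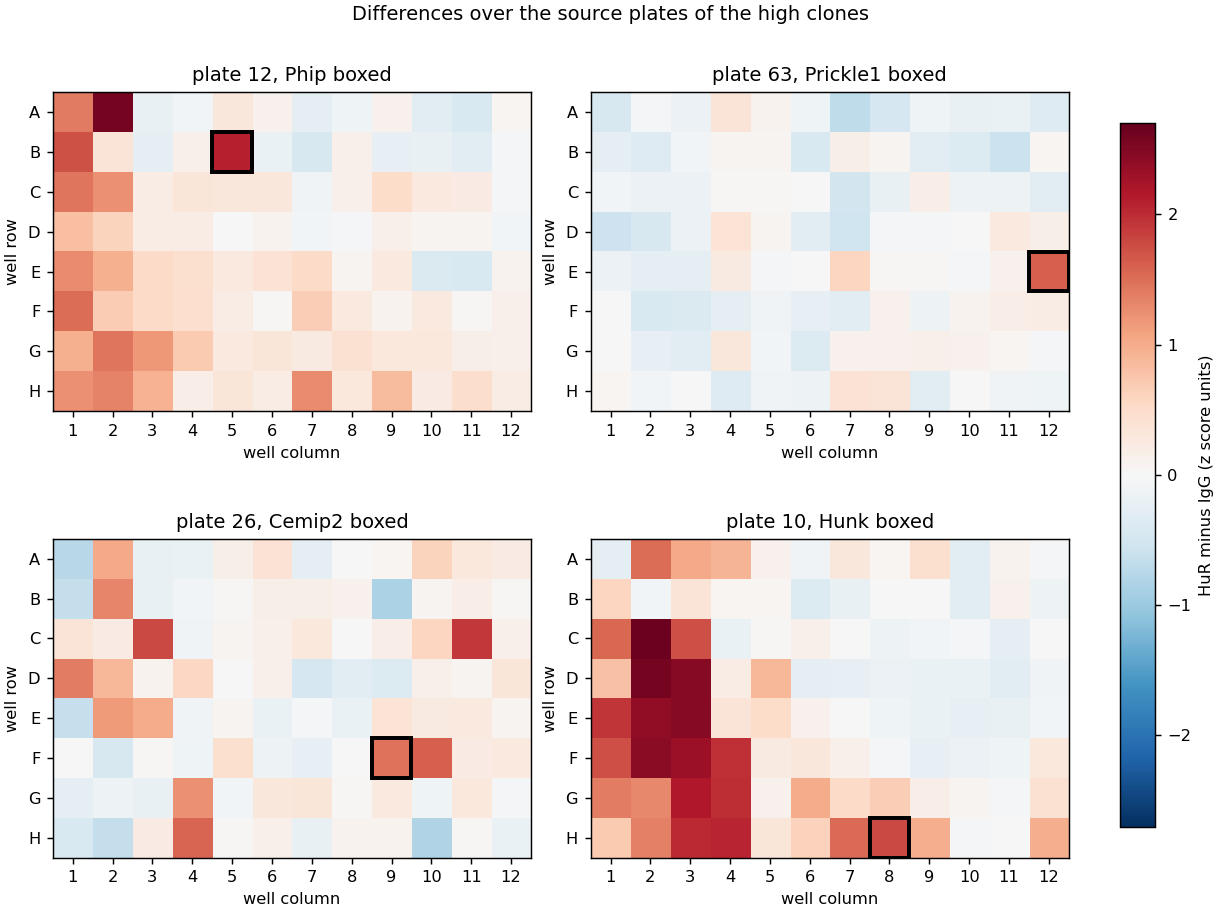
HuR minus IgG differences (colour, z score units) of all 96 wells of the source plates of the high clones, by well row and column, with the clone boxed. Prickle1 is the only well of plate 63 at or above 1, and Phip stands apart from the high wells in columns 1 to 3 of plate 12. Cemip2 has the Hmgb1 well at its right, and Hunk lies in a raised run of wells in row H of plate 10.

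Hunk does not go with the label of a lone high clone by the wells that touch it. Its clone was on plate 10, row H, column 8, with HuR scores of 2.57, 2.41 and 2.88 and IgG scores of 1.23, 0.45 and 0.86. These runs did not overlap either, with a gap of 1.18 units, and the run pairs gave 1.34, 1.96 and 2.02. The spot was at percentile 99.2 with HuR and at percentile 80.5 with IgG, and its z ratio in the authors' deposited table is 5.91. Of its 5 adjoining wells 4 were at or above 0.5, and their median was 0.67, above the limit of 0.5 that marks raised neighbours here and that 199 (2.36%) of the 8450 features passed. Over all wells within 2 rows and 2 columns, however, the median around Hunk was 0.24, under that limit, so the call of raised neighbours holds for the wells that touch it and not for the wider area. The medians of the 3 other high clones, at 0.14, 0.17 and 0.21, lay well below it.

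The wells of row H on either side were the highest. Peli1, an E3 ubiquitin ligase of innate immune signalling, was at 1.52 ± 1.00 in column 7, and 2700063G02Rik was at 0.99 ± 0.31 in column 9. In the row above, Las1l, which acts in ribosome assembly, was at 0.67 ± 0.56 and Ak4, a mitochondrial adenylate kinase, was the lowest named well at 0.52 ± 0.57. Peli1 followed Hunk closely in run pairs 3 (2.06 against 1.96) and 4 (2.13 against 2.02), but was at 0.37 in the unnumbered pair, where Hunk was at 1.34. The 5 wells had a median of 0.03 in the unnumbered pair, against 1.00 in pair 3 and 0.99 in pair 4. Hunk was therefore 1.31 units above the median of these wells in the unnumbered pair and 0.96 and 1.03 units above it in the others.

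Plate 10 was the plate with the most high wells on the array. It held 22 of the 132 features at or above 1 in the brighter 50%, or 16.7%, and 13 of its wells were higher than Hunk. Of its 23 wells at or above 1 unit at any brightness, 21 lay in columns 1 to 4, with an Actb well in row D, column 2, at 2.59 ± 0.51. Peli1 and Hunk were the other 2. Subtracting the median of the adjoining wells brought Hunk from 1.77 to 1.10, by more than its spread between runs, and left Phip at 1.89, Prickle1 at 1.44 and Cemip2 at 1.33. Whether the raised wells of plate 10 take part in the Hunk value was not tested.

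**Figure D3:**
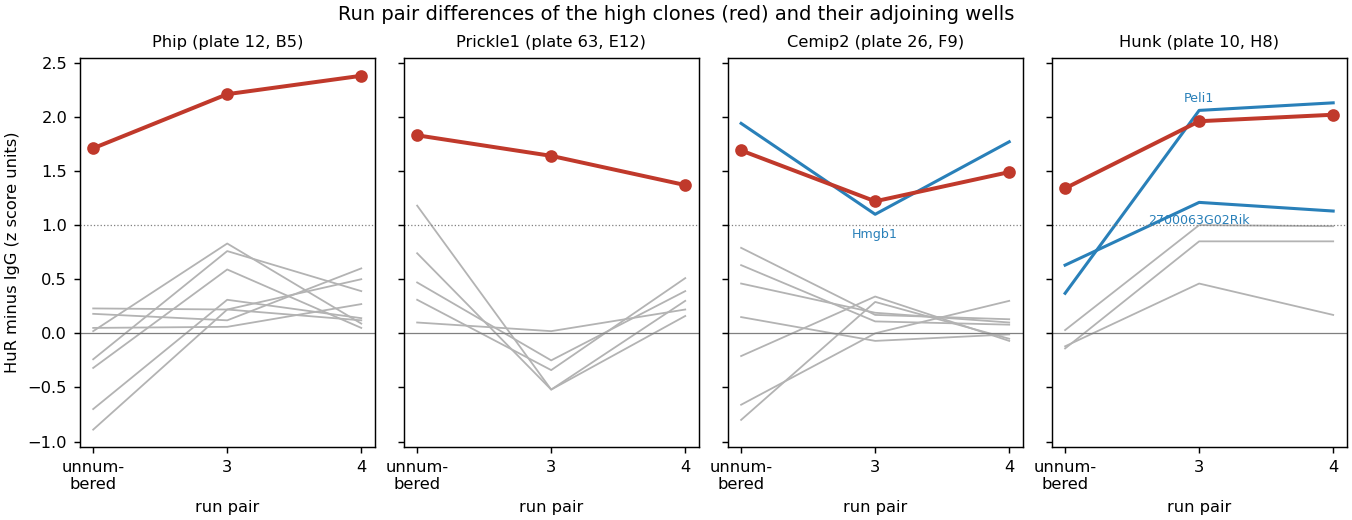
HuR minus IgG difference (z score units) in the unnumbered run pair, pair 3 and pair 4 for each high clone (red) and its adjoining wells (grey, or blue where their mean is at least 0.9). Phip and Prickle1 lie above all their neighbours in every pair, Hmgb1 follows Cemip2, and Peli1 lies with Hunk in pairs 3 and 4, with 2700063G02Rik below them at 1.21 and 1.13.

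The spots printed around the high clones on the array, from 4 to 7 for each, were not raised. Their differences ran from -0.37 to -0.22 around Phip, from -0.22 to 0.34 around Prickle1, from -0.46 to 0.20 around Cemip2 and from -0.21 to 0.10 around Hunk. Hunk was thus high on the array among spots near 0, while wells near it were high on the plates. On the combined plates the wells around Hunk had a median of 0.09, though 3 of the 8 were at or above 0.5 and the highest was at 1.23. Around Phip and Prickle1 0 of the 8 wells of the combined plates were at or above 0.5.

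How often a high clone stands alone depends on how the neighbours are read. Of the 132 features at or above 1 unit, 57 (0.675% of the 8450) had an adjoining median under 0.5, and Phip, Prickle1 and Cemip2 are among them. In 43 (0.509%) no adjoining well reached 1, which leaves out Cemip2 as well. In 26 (0.308%) every adjoining well was under 0.5, and these include Phip at 2.10 and Prickle1 at 1.61. The 26 also hold the clones of Pcbp2 on plates 127 and 150, of Ptp4a1 on plates 62 and 119, of Ywhaz on plates 19 and 152 and of Hmgb1 on plates 59 and 126. Those 4 genes were each high without high neighbours on more than 1 plate. Phip was high on 1 plate only, with its dim clones at 0.30 and -0.33, and Prickle1 had no second clone. The 4 genes were taken from the 26 for this, so it is a description. Not every clone of theirs was high, as the Hmgb1 clone of plate 27 was at 0.35. The bright clone 2810004D21Rik, named by a synonym of Phip but not counted as Phip, was at -0.14.

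**Figure D4:**
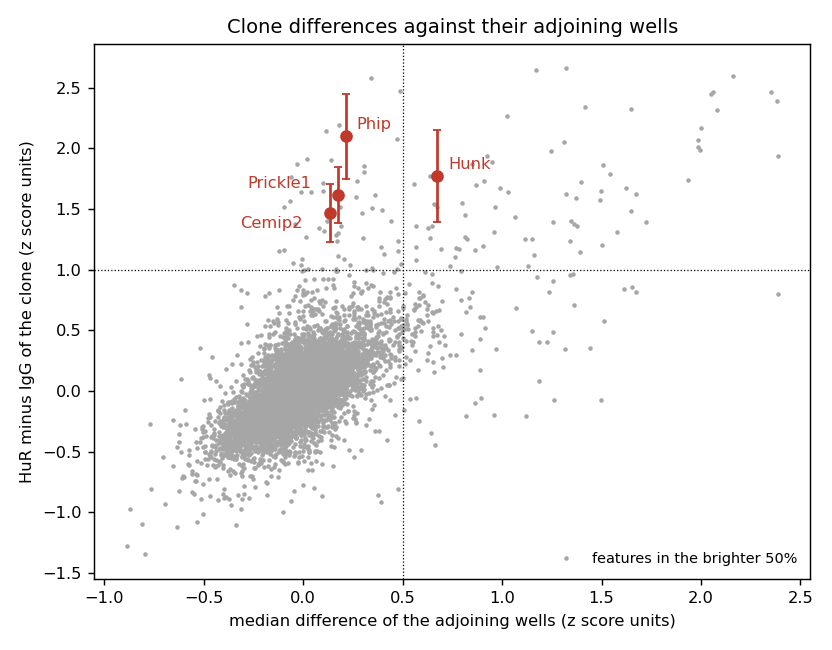
HuR minus IgG difference of each feature in the brighter 50% (grey, 8450 features) against the median difference of its adjoining wells, both in z score units, with the 4 high clones in red and bars for the SD over 3 run pairs. Dotted lines mark 1 unit and the limit of 0.5 for raised neighbours, and Phip, Prickle1 and Cemip2 lie left of that limit while Hunk lies right of it.

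The clones with the most similar run scores were looked up for each clone by the Euclidean distance over the 6 runs of the 2 samples, among clones with a gene number. Closest to the high Phip clone were Crtap (distance 0.27 units), Ext2 (0.31) and Rbm3 (0.32), all on plate 10 and in wells whose adjoining medians were 1.99, 1.995 and 1.24. Their differences, 2.07 ± 0.37, 1.99 ± 0.34 and 1.98 ± 0.22, were within the run spread of Phip, a likeness that follows from how they were picked. Crtap encodes a collagen prolyl hydroxylation factor, Ext2 a heparan sulfate polymerase and Rbm3 a cold-inducible RNA-binding protein.

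Closest to Cemip2 were the Hmgb1 clone in the next well (0.39), Ccnf, a cyclin F clone of plate 10 (0.65), and the Hmgb1 clone of plate 59 (0.66). Prickle1 was nearest to a clone listed as Iap on plate 41 (0.49), to Gspt1, a translation termination factor, on plate 45 (0.56) and to Ptp4a1, a protein tyrosine phosphatase, on plate 62 (0.57). Iap and Gspt1 had adjoining medians of 0.66 and 1.51, and Ptp4a1 of 0.10. Hunk was nearest to Fgf10 on plate 41 (0.65), Ywhaz on plate 19 (0.70) and Ap3d1 on plate 3 (0.79), whose adjoining medians were 1.31, -0.06 and -0.10. Each of the 12 clones nearest to a high clone was itself at or above 1 unit, which the measure favours, since it uses the same scores.

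The dim Phip clones were nearest to dim clones with small differences. These were Tk2, E330034G19Rik and Lrrc47 for the clone on plate 73 and Gpcpd1, C76411 and Cptp for that on plate 69, at distances of 0.30 to 0.69. E330034G19Rik lay on plate 73 and Gpcpd1 on plate 69, next to the Phip well, where it was the lowest named neighbour at -0.09 ± 0.36 and Msh6, a mismatch repair protein, the highest at -0.03 ± 0.40. The adjoining wells of the clone on plate 73 had a median of 0.39, and none of them could be named.

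No other measured gene of the pathways of these genes reached 1 unit in either direction. In the brighter 50%, 60 of 4237 genes (1.42%) were at or above 1 and 4 (0.0944%) were at or below -1, with a median of -0.04 over all genes and 1784 (42.1%) above 0. The lists are small and were written with earlier results of these data known, and their counts are a description.

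Of 14 partners and paralogs of Phip, 5 were measured, with a median of -0.15 ± 0.30 (SD of the median over 3 run pairs), 1 above 0 and 0 at or above 1. Rbx1, the RING subunit of the CUL4 ligase, was at 0.39 ± 0.28 and Akt1, a kinase downstream of insulin receptor substrates, at -0.05 ± 0.38. Brwd1, the paralog of Phip on the array, was at -0.20 ± 0.59 and Akt2 at -0.18 ± 0.18. The value of Brwd1 rests on 1 of 2 clones, and its median over both was -0.04. The median of the 5 genes turned to 0.14 without the unnumbered pair. Rbx1 was the only one of the 5 to exceed its spread between runs. Its value rests on 1 of 3 clones, and the wells next to that clone had a median of 0.28. Over all 3 clones, dim ones included, the median of Rbx1 was -0.26.

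Of 27 planar cell polarity genes, 4 were measured, with a median of 0.09 ± 0.13 and 2 above 0. The median was 0.22 without pair 3 and -0.0025 without the unnumbered pair. Rhoa, a small GTPase that remodels actin, was at 0.58 ± 0.21 and Fzd7, a Wnt receptor, at 0.29 ± 0.73. Rock1, a kinase that Rhoa activates, was at -0.11 ± 0.23 and Fzd3, a Frizzled receptor of the pathway, at -0.19 ± 0.34. The value of Rock1 rests on 1 of 3 clones, and its median over all 3 was 0.00. Rhoa was the only one to exceed its spread between runs. Prickle2, Prickle3 and Prickle4, the paralogs of Prickle1, had no named clone.

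Of 20 genes of hyaluronan turnover, 3 were measured, with a median of 0.31 ± 0.29 and all 3 above 0. Without pair 4 the median was 0.53. Ugdh, which makes the UDP-glucuronate used for hyaluronan, was at 0.55 ± 0.51, Hyal2, a hyaluronidase anchored to the cell surface, at 0.31 ± 0.49 and Hyal1, a lysosomal hyaluronidase, at 0.07 ± 0.37. Cemip, the paralog of Cemip2, had no named clone.

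Of 24 kinases and subunits related to the AMP-activated kinase, 7 were measured, with a median of 0.05 ± 0.04 and 4 above 0. Mark2, a kinase of cell polarity and microtubules, was at 0.49 ± 0.17, but the wells next to it had a median of 0.59. Nuak2, another kinase of the family, was at 0.42 ± 0.49. Snrk, also of this family, was at -0.17 ± 0.36 and Stk11, the upstream kinase LKB1, at -0.20 ± 0.26. The value of Stk11 rests on 1 of 2 clones, and its median over both was -0.017. The value of Hunk was thus 1.28 units above that of the next gene of its family, and the other high clones were likewise the highest of their pathways, as their choice made likely.

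**Figure D5:**
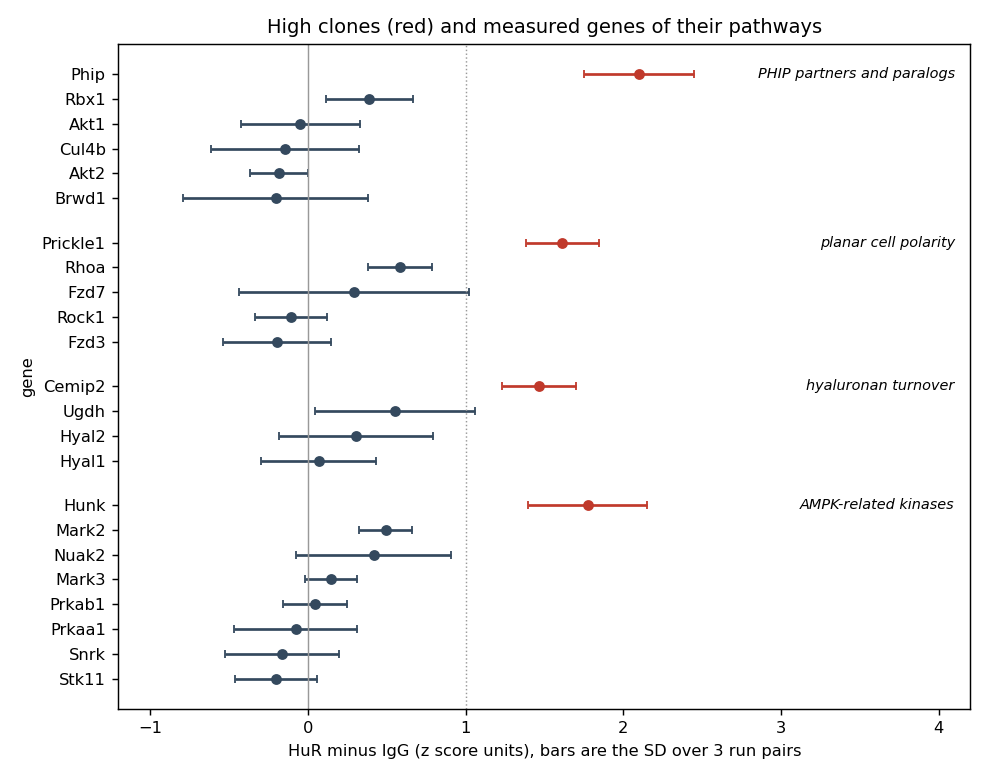
HuR minus IgG differences (z score units) of the 4 high clones (red) and of the measured genes in the brighter 50% from the list of each (dark), with bars for the SD over 3 run pairs and a dotted line at 1 unit. All 19 pathway genes lie below 1, from -0.20 to 0.58, and the high clones from 1.47 to 2.10.

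Reference clones of the same array covered a wide range, and no support is drawn from them, since the 4 clones were chosen for high values. The 8 Actb clones ran from 1.47 to 2.66 and the 5 Hmgb1 clones from 0.35 to 1.80, while Elavl1, the mRNA of HuR, was at 0.82 ± 0.12 on 1 clone. All 4 of the high clones lay within the range of the Actb clones or just below its lowest value. Of the 8 Actb clones, 7 had an adjoining well at or above 1 unit, as had 89 of the 132 high features, Cemip2 and Hunk included.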

How the data were processed

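RNA was labelled with 33P during reverse transcription and hybridised to spotted mouse cDNA clones, per the labels' protocols. The authors deposited a z score per clone and run, with means over runs, z ratios and a p-value to 2 decimals that was not used for any call here. Per the file headers and values, each run has mean 0 and SD 1 within each of 2 sections of 8448 features. No significance test was possible with 1 sample per antibody, and the number of array runs limits the precision.

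Scores were centred on the section median, and HuR minus IgG differences were averaged over same-numbered runs, with pandas 2.3.3 and numpy 2.4.6 (Python 3.11.15). Deviations of same-numbered runs correlated at 0.33 to 0.55, against -0.48 to 0.08 for other pairs. The correlations of each HuR run with the IgG runs come close to cancelling, so these ranges are not independent of each other. This contrast is a description, and the pairing itself was not tested. A difference of at least 1 unit was called high, and adjoining wells with a median of at least 0.5 were called raised. Clones of a gene were summarised by their median over those in the brighter 50%. Figures were drawn with matplotlib 3.10.9. The calculations were tested on simulated data.

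The members and lists were chosen with earlier results of these data known. The genes named are the members, the highest and lowest named adjoining wells, the 3 nearest clones of each member clone, Actb, Hmgb1 and Elavl1, and the 2 highest and 2 lowest genes of each list. Other named adjoining wells, the marker genes and Pcbp2, Ptp4a1 and Ywhaz among the lone high clones were named after their values were seen. Gene names follow the table's numbers, brought up to date with the RefSeq genes of GRCm38.p6. The alternatives were other thresholds, brightness limits, neighbour layouts, summaries of the run pairs and leaving out each run pair.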

Additional observations from a re-analysis of the deposited data

How the results depend on the processing

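Of 66 values of the 6 clones under alternatives, 65 stayed within 1 SD over the run pairs and 0 called values changed sign. The exception was Hunk, at 1.10 after subtraction of its adjoining median. Some of these outcomes were fixed in advance. Leaving out 1 of 3 run pairs, or taking their median, cannot move a mean by as much as its SD over the pairs. Unpaired runs leave each difference unchanged by construction. Over 11 alternatives Phip lay between 1.84 and 2.39, Prickle1 between 1.44 and 1.74, Cemip2 between 1.25 and 1.68 and Hunk between 1.10 and 1.99. The adjoining medians moved with the layout. For Cemip2 the median was 0.023 over wells in the brighter 50%, 0.32 over wells that share a side and -0.22 over array spots, and its highest well was at 1.60. For Hunk it was 0.087 on the combined plates and -0.033 over array spots, with the highest well at 1.52, and 0.24 over wells within 2 rows and 2 columns, where its neighbours no longer count as raised, and for Phip it was -0.29 over array spots. Prickle1 and the Phip clone of plate 69 had no adjoining well in the brighter 50%, so that alternative gave no value there. The count of 132 high features became 84 with every run pair at 1, 386 with runs that do not overlap, 311 from 0.6 and 66 from 1.5. The count of 57 without raised neighbours became 105 over all features and 36 in the first section. It was 37 with raised neighbours from 0.25 and 70 with raised neighbours from 0.75. With high features called from 0.6 it was 188, and with high features called from 1.5 it was 24. It was 52 to 90 when a run pair was left out, with 90 reached without pair 3. The median of the AMP-activated kinase list, 0.05, became -0.017 over clones of all signal levels, -0.06 as the median of run pairs and 0.055 to 0.11 when a run pair was left out. Left-out run pairs moved the median of the Phip partners from -0.15 to between -0.21 and 0.14, with 0.04 as the median of run pairs, that of planar polarity from 0.09 to between -0.0025 and 0.22 and that of hyaluronan turnover from 0.31 to between 0.25 and 0.53. In each case the cause was not tested. The counts by run pair, by overlap and in the first section, and the layouts of the combined plates, the array and the highest well, were chosen after seeing the data. Array runs were set in pairs by number, and without that pairing the differences are the same, with SDs of 0.28 to 0.53 for the high clones. A paired test over samples was not possible with 1 HuR sample and 1 IgG sample. The other Phip clones and the wells next to Prickle1 were dim, and whether this hides a difference there was not tested.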
